A study of Mus musculus with 17 samples.

Results

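Complement genes were followed in mouse pancreatic stellate cells under 4 culture conditions. The genes described here are 9 of the 35896 gene IDs in the files. They were chosen by name as complement components, regulators or relatives, with earlier results of these data known. They are the proteases C1ra and C1s1, the components C4b, C3 and Cfb, the regulators Serping1 and Cd55, the receptor C5ar1 and the C1q-like C1qtnf6. After the filter on low counts 13923 genes were tested, among them 8 of the 9. C5ar1 did not pass.

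Complement is a cascade of plasma proteins. In the classical pathway C1q binds its target and the proteases C1r and C1s, which travel with it, cleave C4 and C2. In the alternative pathway factor B joins C3b to form the enzyme that cleaves more C3, the component on which all pathways converge. Soluble and membrane-bound inhibitors hold the cascade in check. The liver makes most of the plasma proteins, and fibroblasts of inflamed tissue are known to make several of them. Stellate cells are the pancreatic cells from which fibroblasts of pancreatic tumours can arise. TGF-beta drives them towards a contractile, matrix-producing state, which the series calls myCAFs, whereas factors released by tumour cells can drive an inflammatory state.

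The 17 RNA libraries came from 2 stellate cell lines, PSC4 and PSC5, of wild-type C57BL/6J mice. Cells were embedded in Matrigel (a gel made from basement membrane) and kept in their medium for 4 days. The control group in control medium, called quiescent in the series, had 5 libraries (PSC4 replicates 1 to 3, PSC5 replicates 1 and 2). The TGF-beta group received 20 ng/mL TGF-beta in control medium and had 4 libraries (PSC4 replicates 2 and 3, PSC5 replicates 1 and 2). The CM group, in medium conditioned by pancreatic tumour organoids, had 4 libraries (replicates 1 and 2 of each line), and the CM+neratinib group had the same 4 with neratinib at 300 nM, a drug that blocks kinases of the ERBB receptor family. Replicate numbers stood for passages, 23 to 25 in PSC4 and 27 and 28 in PSC5. They are separate passages of 2 lines and not separate animals. The test used here has a line term, so its p-values measure the spread between libraries left after group and line. They do not measure the spread between lines or animals. Fits with the replicate number as a block also remove differences shared by libraries of the same line and passage. Both conditioned-medium groups carried a medium code that the labels do not explain, T6 in every replicate 2 and T8 in every replicate 1.

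Library totals were 22168953 to 29421447 counts, lowest in the CM+neratinib group. Levels are CPM, read counts scaled to the size of each library with TMM factors, and 3 counts in a library stood for 0.101 to 0.137 CPM. Libraries labelled PSC4 replicate 1 stood apart from the rest of their line: on the third principal component of all genes the 3 of them lay between 1.8 and 37.0, the PSC5 libraries between -3.6 and 36.2, and PSC4 replicates 2 and 3 between -56.8 and -19.7. Results without these 3 libraries are therefore given beside the counts below. The 8 stellate and fibroblast markers summed to 4013 to 20356 CPM, although the stellate marker Des was low (at most 3.71 CPM). Hepatocyte markers (Alb, Apoa1, Ttr, Fgb) summed to at most 0.195 CPM and 4 endothelial markers to at most 4.68 CPM.

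Other cell types could add complement transcripts, so their markers are given first. The 8 epithelial markers summed to 15.8 to 23.4 CPM in control and 14.8 to 20.3 CPM with TGF-beta. In CM they summed to 145 and 175 CPM with medium T6 but 20.2 and 41.5 CPM with T8, and in CM+neratinib to 140.0 and 311 CPM with T6 and 9.70 and 50.2 CPM with T8. Each of the 8 epithelial markers had counts in at least 12 of the 17 libraries, but their levels differed. In control Muc1 (mean 11.7 CPM) and Krt19 (5.17 CPM) were the highest, and Krt8 and Cldn4 had 2 and 1 counts in all. Krt8 ranged from 0.408 to 43.5 CPM in CM and from 0 to 94.0 CPM in CM+neratinib. Cldn4 ranged from 0.0340 to 14.7 CPM in CM and from 0 to 25.9 CPM in CM+neratinib. In CM the 2 libraries with the lower epithelial sums had the higher C3 levels. In CM+neratinib the library at 9.70 CPM had the lowest C3 level and that at 50.2 CPM the highest. The libraries at 140.0 and 311 CPM had 1455 and 584 CPM of C3. Levels of C3 are given below. The 9 leukocyte markers summed to 14.3 to 17.8 CPM in control and 7.91 to 9.05 CPM with TGF-beta. In CM they summed to 27.1 to 53.2 CPM and in CM+neratinib to 35.9 to 68.2 CPM. With TGF-beta and in CM this sum moved, against control, in the same direction as several complement genes. With neratinib it was above CM in every pair of the same line and replicate number, where Cfb and Serping1 were lower. Its part in the levels of complement genes was not tested. Cd14 made up most of the sum (4.15 to 64.2 CPM). The defining leukocyte marker Ptprc had at most 1 count in a library, and Adgre1 and Tyrobp were at 0 in all 17. In these bulk libraries fewer cells of a type and less RNA per cell cannot be told apart.

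**Figure D1:**
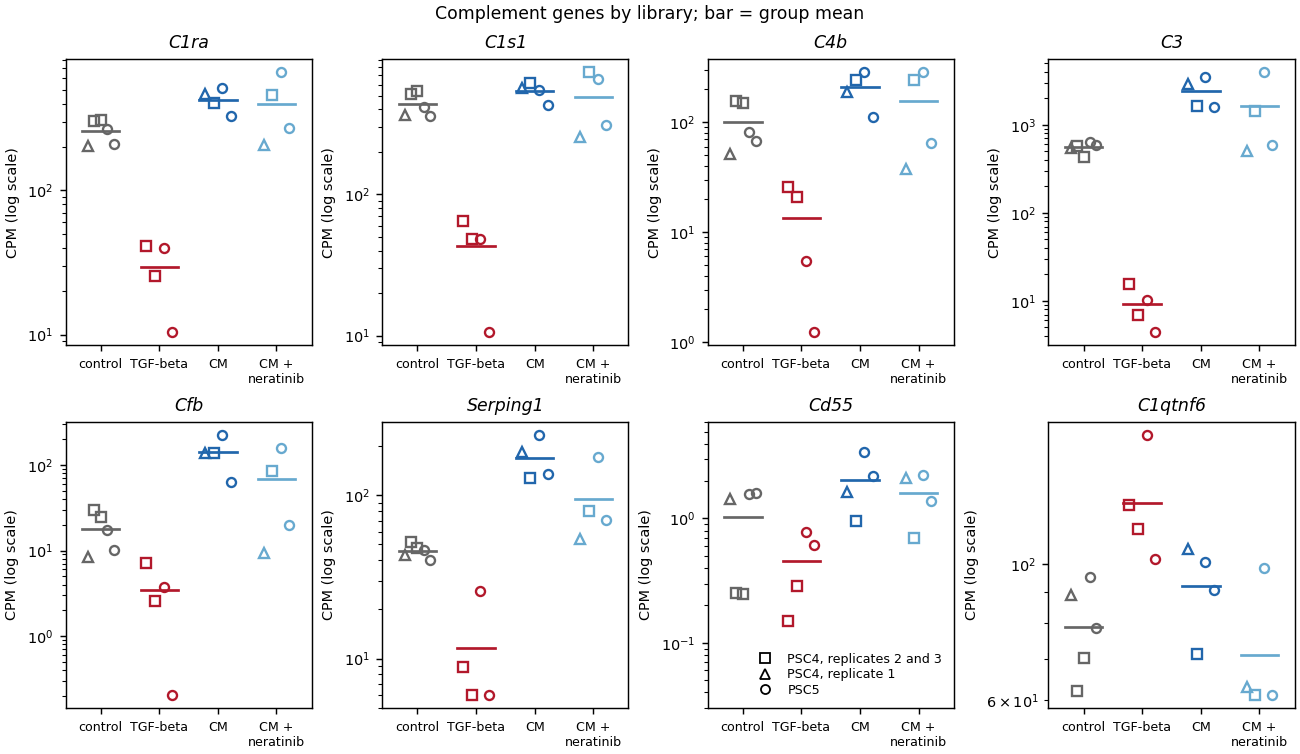
Levels of the 8 tested complement genes in every library, in CPM on a log axis, by group; each point is a library (squares PSC4 replicates 2 and 3, triangles PSC4 replicate 1, circles PSC5) and each bar a group mean. The 4 TGF-beta libraries lie below all control libraries for C1ra, C1s1, C4b, C3, Cfb and Serping1 and above all of them for C1qtnf6. The 4 CM libraries lie above all control libraries for C1ra, C3, Cfb and Serping1. The share of all genes separated in this way was not computed.

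In control medium the order of the genes, per kilobase of exon, was C1s1 (141 ± 26.8 CPM per kilobase, SD, n = 5), C3 (108 ± 14.7), C1ra (86.7 ± 16.7), C1qtnf6 (29.3 ± 4.97), Serping1 (19.6 ± 1.89), C4b (17.9 ± 8.59), Cfb (6.40 ± 3.25) and Cd55 (0.210 ± 0.146). The control ranges of C1s1 and C3 overlapped, as did those of C3 and C1ra, of Serping1 and C4b and of C4b and Cfb, so these neighbours are not ordered beyond their spread. With TGF-beta C1qtnf6 came first (46.5 ± 9.67 CPM per kilobase, SD, n = 4) and C3 was sixth (1.80 ± 0.931). In CM C3 came first at 470 ± 186 CPM per kilobase (SD, n = 4), above C1s1 at 174 ± 25.3, and these 2 ranges did not overlap. C3 also led in CM+neratinib, at 317 ± 316 CPM per kilobase, but there its range overlapped that of C1s1 (157 ± 77.9).

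Of the 8 tested genes TGF-beta lowered 6 and raised 1. C3, C4b, Cfb, C1s1, C1ra and Serping1 fell, and C1qtnf6 rose (edgeR's quasi-likelihood test, Benjamini-Hochberg adjusted p under 0.05). Of all 13923 genes 40.2% were called in this comparison, 20.5% lower and 19.7% higher. The median log2 fold change of the 8 genes was -2.70, against -0.02 over all genes. CM raised 3 of the 8 (C3, Cfb, Serping1) and lowered 0, where 14.1% of all genes were called, 7.02% higher and 7.10% lower. The median log2 fold change of the 8 genes in CM was 1.05. Under upper-quartile scaling the share of called genes that were higher in CM was 37.3%, against 49.8% under TMM, and the same 3 genes were called.

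**Figure D2:**
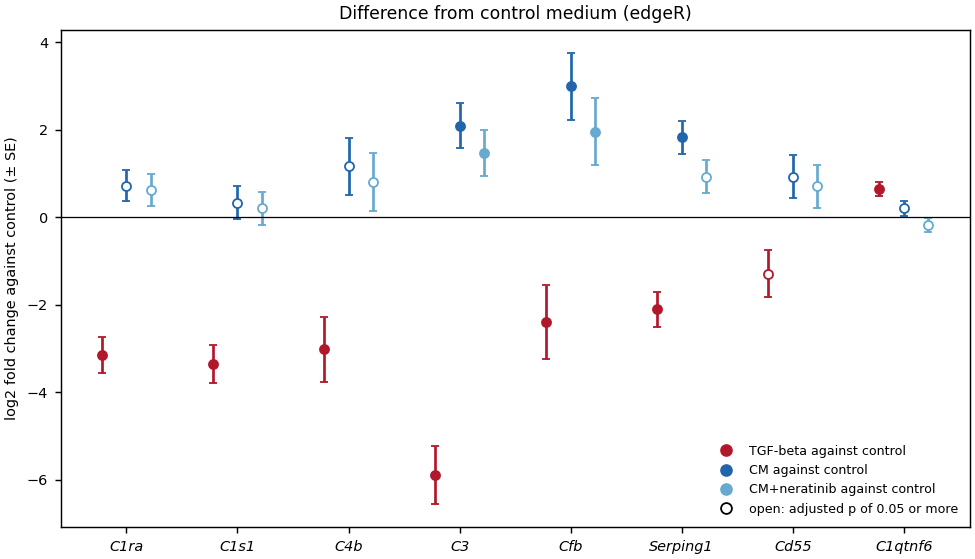
Fitted log2 fold changes against control medium with their standard errors for the 8 tested complement genes (edgeR, all 17 libraries); filled points have an adjusted p under 0.05 and open points do not. C3 shows the largest fall with TGF-beta (-5.90) and Cfb the largest rise in CM (3.00), and C1qtnf6 is the 1 gene above zero with TGF-beta.

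The C1 proteases come first. C1s1 (ENSMUSG00000038521, chr6:124530345-124542359, minus strand, GRCm38) encodes C1s, the protease that cleaves C4 and C2, and C1ra (ENSMUSG00000055172, chr6:124512405-124523443, plus strand) encodes C1r, which activates C1s. The genes face each other with 6901 bases between them. C1s1 in control medium stood at 367, 514 and 544 CPM in PSC4 replicates 1 to 3 and at 419 and 361 CPM in PSC5 replicates 1 and 2. With TGF-beta C1s1 stood at 64.5 and 48.5 CPM in PSC4 replicates 2 and 3 and at 48.5 and 10.5 CPM in PSC5 replicates 1 and 2. All 4 TGF-beta libraries were below all 5 control libraries, and PSC5 replicate 2 was the lowest. The fall was 10.3-fold in group means (log2 fold change -3.36, SE 0.43, adjusted p = 2.85e-05).

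C1ra followed the same pattern. It stood at 204, 304 and 308 CPM in the PSC4 control libraries 1 to 3 and at 266 and 211 CPM in PSC5 controls 1 and 2. With TGF-beta C1ra stood at 41.4 and 25.5 CPM in PSC4 replicates 2 and 3 and at 39.8 and 10.4 CPM in PSC5 replicates 1 and 2, again with no overlap. The group means differed 8.84-fold (log2 fold change -3.14, SE 0.41, adjusted p = 3.43e-05). Reads could be split with the close copies C1s2 and C1rb, but these held only 0.430% and 0.184% of the summed counts of each pair.

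In CM neither protease passed the test. C1s1 stood at 570.5 and 620.0 CPM in PSC4 replicates 1 and 2 and at 549 and 433 CPM in PSC5 replicates 1 and 2, a range that overlapped control (log2 fold change 0.34, 95% interval -0.47 to 1.14, adjusted p = 0.596). C1ra stood at 462 and 402 CPM in PSC4 replicates 1 and 2 and at 511 and 329 CPM in PSC5 replicates 1 and 2. These 4 values lay above all 5 control values, yet the log2 fold change of 0.73 (SE 0.36) had an adjusted p of 0.203 with the line as covariate. With the replicate number as a block the log2 fold change of C1ra was 0.78 (SE 0.26, adjusted p = 0.0457).

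C1ra and C1s1 were each other's closest match. Over the 17 libraries, with line means removed, the log2 CPM of each correlated more with the other (Pearson r = 0.990) than with any of the 10834 genes compared, which is a description and carries no test. Their ratio per length, C1ra over C1s1, stayed between 0.582 and 0.666 in the 5 control libraries. It was 0.551 to 1.03 with TGF-beta, 0.680 to 0.978 in CM and 0.652 to 1.05 in CM+neratinib. The CM range lay above the control range. C3 over C1s1 moved far more, from 0.487 to 1.00 in control to 0.0860 to 0.254 with TGF-beta and 1.61 to 3.89 in CM.

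**Figure D3:**
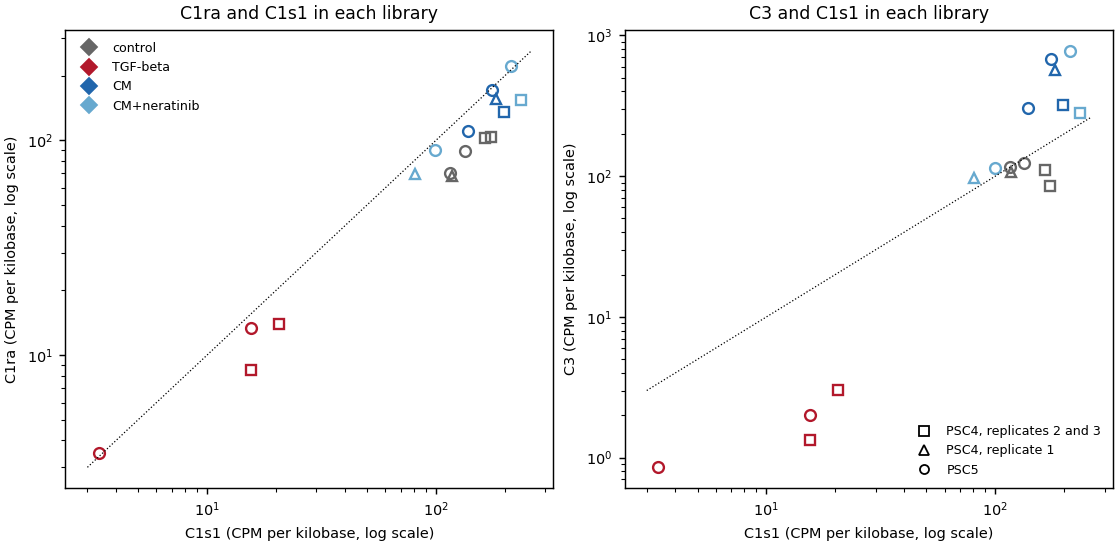
C1ra (left) and C3 (right) against C1s1 in each of the 17 libraries, in CPM per kilobase of exon on log axes; colours are groups, shapes are lines and the dotted line marks equal levels. C1ra stays within 0.551 to 1.05 times C1s1 in all libraries, whereas C3 lies below C1s1 in the TGF-beta libraries (0.0860 to 0.254 times) and above it in CM (1.61 to 3.89 times).

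C4b (ENSMUSG00000073418, chr17:34728380-34743882, minus strand) encodes complement C4, the substrate of C1s, and its protein becomes part of the classical C3 convertase. In control medium C4b stood at 51.7, 158 and 150.1 CPM in PSC4 replicates 1 to 3 and at 82.1 and 67.6 CPM in PSC5 replicates 1 and 2, so PSC4 replicate 1 sat with PSC5 and below the other PSC4 libraries. With TGF-beta C4b stood at 25.9 and 20.9 CPM in PSC4 replicates 2 and 3 and at 5.50 and 1.22 CPM in PSC5 replicates 1 and 2. No TGF-beta value reached the control range (7.61-fold lower mean, log2 fold change -3.02, SE 0.74, adjusted p = 0.00461). In CM C4b stood at 191 and 243 CPM in PSC4 replicates 1 and 2 and at 288 and 112 CPM in PSC5 replicates 1 and 2. PSC5 replicate 2 lay within the control range, and the difference was not called (log2 fold change 1.16, SE 0.65, adjusted p = 0.263). With the replicate block it was 1.36 (SE 0.45, adjusted p = 0.0471). The near-identical copy C4a was not analysed here, and reads that fit both copies may be counted for C4b.

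C3 (ENSMUSG00000024164, chr17:57203970-57228136, minus strand), the component whose cleavage all pathways share, had the largest change of the 8 tested genes with TGF-beta. In control medium C3 stood at 549, 572 and 435 CPM in PSC4 replicates 1 to 3 and at 637 and 594 CPM in PSC5 replicates 1 and 2. With TGF-beta C3 stood at 15.4 and 6.86 CPM in PSC4 replicates 2 and 3 and at 10.4 and 4.39 CPM in PSC5 replicates 1 and 2. The group mean of 9.26 ± 4.79 CPM (SD, n = 4) was 60.2-fold below the control mean of 557 ± 75.7 CPM (SD, n = 5; log2 fold change -5.90, SE 0.66, adjusted p = 9.27e-06). In CM C3 stood at 2937 and 1644 CPM in PSC4 replicates 1 and 2 and at 3505 and 1576 CPM in PSC5 replicates 1 and 2. All 4 were above control, and the T8 libraries (replicates 1) were above the T6 libraries in both lines. The mean of 2416 ± 959 CPM (SD, n = 4) was 4.33-fold above control (log2 fold change 2.09, SE 0.52, adjusted p = 0.0166). This call was lost without CM PSC4 replicate 1 (1.89, adjusted p = 0.0512) or CM PSC5 replicate 1 (1.92, adjusted p = 0.0604).

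The promoter of C3 is shown because C3 had both the largest fall with TGF-beta and a rise in CM, and that of C1s1 because it fell with TGF-beta and was not called in CM. The sequences are the 250 bases before the gene start in RefSeq on GRCm38.p6, 5′ to 3′ on the gene's strand. Capitals mark matches on either strand to GGGA, any 4 bases, CC (NF-kB), TTGCNNAA (C/EBP), TTCNNNGAA (STAT) or GAAA, any 2 bases, GAAA (interferon-stimulated response element); no 2 matches overlap. C3 spans chr17:57228137-57228386 and C1s1 spans chr6:124542360-124542609, both on the minus strand.
C3: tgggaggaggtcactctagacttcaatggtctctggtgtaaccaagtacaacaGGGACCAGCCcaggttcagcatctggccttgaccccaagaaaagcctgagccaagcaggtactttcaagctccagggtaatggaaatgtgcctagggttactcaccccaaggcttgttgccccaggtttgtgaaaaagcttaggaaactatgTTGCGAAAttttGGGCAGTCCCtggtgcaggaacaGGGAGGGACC
C1s1: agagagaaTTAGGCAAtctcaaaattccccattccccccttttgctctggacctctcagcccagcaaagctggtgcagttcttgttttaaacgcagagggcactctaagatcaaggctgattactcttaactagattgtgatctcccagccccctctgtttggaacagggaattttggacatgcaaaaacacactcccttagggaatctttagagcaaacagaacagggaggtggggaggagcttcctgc
The C3 window held 3 matches to the NF-kB letters, starting 197, 33 and 10 bases before the gene start, and 1 to the C/EBP letters at 45 bases. The C1s1 window held 1 match to the C/EBP letters, at 242 bases. A second annotated start of C1s1 had 1 NF-kB match at 35 bases, Cd55 had 1 at 61 bases, and the windows of C1ra, C5ar1 and C1qtnf6 had 0 matches to any of the 4 motifs. Of 32817 promoter windows of this length 17.6% held the NF-kB letters, 9.57% the C/EBP letters, 7.01% the STAT letters and 2.97% the interferon element. C4b, Cfb and Serping1 had no window in the table. A match describes letters and not binding.

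Cfb (ENSMUSG00000090231, chr17:34856374-34862518, minus strand) encodes factor B, the protease of the alternative C3 convertase, and lies 112491 bases from C4b. In control medium Cfb stood at 8.35, 29.9 and 24.5 CPM in PSC4 replicates 1 to 3 and at 17.5 and 10.2 CPM in PSC5 replicates 1 and 2. In CM Cfb stood at 138 and 139 CPM in PSC4 replicates 1 and 2 and at 228 and 63.8 CPM in PSC5 replicates 1 and 2. All 4 CM values were above the highest control value, and the mean was 7.86-fold higher (142 ± 67.1 against 18.1 ± 9.18 CPM, SD, n = 4 and 5; log2 fold change 3.00, SE 0.76, adjusted p = 0.0190). The call was lost without CM PSC5 replicate 1 (2.60, adjusted p = 0.0692) or control PSC5 replicate 2 (2.83, adjusted p = 0.0545).

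With TGF-beta Cfb stood at 7.14 and 2.56 CPM in PSC4 replicates 2 and 3 and at 3.78 and 0.203 CPM in PSC5 replicates 1 and 2. All 4 were below control (5.29-fold lower mean, log2 fold change -2.39, SE 0.85, adjusted p = 0.0359). This was the least stable of the TGF-beta calls: it was lost on leaving out control PSC4 replicate 2 or 3, control PSC5 replicate 1, TGF-beta PSC4 replicate 3 or TGF-beta PSC5 replicate 1 or 2 (adjusted p = 0.0573 to 0.0924). With the replicate block it was -2.75 (adjusted p = 0.00180). The gene Gm20547 overlaps Cfb on the same strand and had 91 counts in all, 0.361% of the Cfb counts.

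Serping1 (ENSMUSG00000023224, chr2:84765387-84775444, minus strand) encodes C1 inhibitor, which inactivates C1r and C1s. In control medium Serping1 stood at 43.0, 51.6 and 47.3 CPM in PSC4 replicates 1 to 3 and at 46.6 and 40.0 CPM in PSC5 replicates 1 and 2, the narrowest control spread of the 8 tested genes relative to its mean. In CM Serping1 stood at 184 and 128 CPM in PSC4 replicates 1 and 2 and at 235 and 134 CPM in PSC5 replicates 1 and 2. The mean was 3.73-fold higher with no overlap (170.5 ± 50.1 against 45.7 ± 4.40 CPM, SD, n = 4 and 5; log2 fold change 1.83, SE 0.37, adjusted p = 0.00629). This call held in all 9 fits that left out 1 library, and was lost with the T6 media alone (1.49, adjusted p = 0.0546). With TGF-beta Serping1 stood at 8.87 and 6.00 CPM in PSC4 replicates 2 and 3 and at 25.8 and 5.98 CPM in PSC5 replicates 1 and 2. All 4 were below control, with PSC5 replicate 1 well above the other 3 (3.91-fold lower mean, log2 fold change -2.11, SE 0.41, adjusted p = 0.000926).

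Serping1 and its target C1s1 did not keep a fixed ratio. Per length, Serping1 over C1s1 was 0.117 to 0.158 in the control libraries, 0.277 to 0.577 in CM and 0.166 to 0.764 with TGF-beta. Both treated ranges lay above the control range. In CM the numerator was higher with no called change in C1s1, and with TGF-beta both genes were lower.

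Cd55 (ENSMUSG00000026399, chr1:130439027-130462744, minus strand) encodes decay-accelerating factor, a membrane protein that takes C3 convertases apart. It was scarce, with 564 counts over all 17 libraries. In control medium Cd55 stood at 1.43, 0.250 and 0.247 CPM in PSC4 replicates 1 to 3 and at 1.58 and 1.60 CPM in PSC5 replicates 1 and 2, so PSC4 replicate 1 again sat with PSC5. With TGF-beta Cd55 stood at 0.150 and 0.289 CPM in PSC4 replicates 2 and 3 and at 0.774 and 0.610 CPM in PSC5 replicates 1 and 2. In CM Cd55 stood at 1.63 and 0.953 CPM in PSC4 replicates 1 and 2 and at 3.44 and 2.18 CPM in PSC5 replicates 1 and 2. Both treated ranges overlapped control, and neither difference was called with the line as covariate (TGF-beta -1.29, SE 0.53, adjusted p = 0.0678; CM 0.93, SE 0.48, adjusted p = 0.221). With the replicate block both were (TGF-beta -0.92, adjusted p = 0.0405; CM 0.92, adjusted p = 0.0410). Without the 3 libraries labelled PSC4 replicate 1 the CM difference was 1.18 (SE 0.32, adjusted p = 0.0252) and the TGF-beta difference -0.84 (adjusted p = 0.0588). Its near-identical copy Cd55b had 0 counts.

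C5ar1 (ENSMUSG00000049130, chr7:16246743-16259540, minus strand), the receptor of the C5 fragment C5a, had 2 counts in all, 1 in control PSC4 replicate 1 and 1 in control PSC5 replicate 1. All TGF-beta, CM and CM+neratinib libraries had 0 counts, which allows at most 0.137 CPM in a library. No difference in C5ar1 was detectable at this depth.

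C1qtnf6 (ENSMUSG00000022440, chr15:78523346-78531416, minus strand) encodes a secreted protein with a C1q-like domain and is a relative of C1q, not a part of the cascade. In control medium C1qtnf6 stood at 89.0, 62.1 and 70.3 CPM in PSC4 replicates 1 to 3 and at 95.2 and 78.6 CPM in PSC5 replicates 1 and 2. With TGF-beta C1qtnf6 stood at 125 and 114 CPM in PSC4 replicates 2 and 3 and at 162 and 102 CPM in PSC5 replicates 1 and 2, all above control. The rise was 1.59-fold in group means (log2 fold change 0.65, SE 0.16, adjusted p = 0.00558), and it was called in all 9 fits that left out 1 library. In CM C1qtnf6 stood at 106 and 71.4 CPM in PSC4 replicates 1 and 2 and at 101 and 90.6 CPM in PSC5 replicates 1 and 2, which overlapped control (log2 fold change 0.21, 95% interval -0.15 to 0.56, adjusted p = 0.450).

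C1qtnf6 also differed from the other genes in its profile over libraries. Its Pearson r with the other 7 tested genes, over 17 libraries with line means removed, was -0.548 to -0.257, whereas C3, C4b, Cfb, C1s1, C1ra and Serping1 correlated with each other at 0.873 to 0.990. Genes closest to C1qtnf6 were Sparc (r = 0.951), Sec63 and Fermt2. Those closest to C3 were Ptgir (r = 0.990), Ccl7 and Ccl2, and those closest to Serping1 were Igfbp3 (r = 0.979), Glrx and Dram1. For Cfb they were Nod1 (r = 0.965), Lama4 and Steap4, and for C4b Srgap3 (r = 0.975), Serpina3m and Grem1. Cd55 was closest to Nr4a1 (r = 0.936), Retreg3 and Smug1. These values describe 17 libraries that share treatments and depth.

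CM and TGF-beta were also compared directly, with no control library in the contrast. The 7 genes C3, C4b, Cfb, C1s1, C1ra, Serping1 and Cd55 were higher in CM, and 35.2% of all genes were called, 17.7% higher and 17.5% lower. For these 7 every CM library was above every TGF-beta library, but the share of all genes separated in this way was not computed. The mean of C3 was 261-fold higher (log2 fold change 7.99, SE 0.73, adjusted p = 1.62e-06), that of Cfb 41.5-fold (5.39, SE 0.95, adjusted p = 0.000496) and that of Cd55 4.50-fold (2.22, SE 0.55, adjusted p = 0.00557). C1qtnf6 overlapped between the groups (log2 fold change -0.45, adjusted p = 0.0591), and was called lower in CM with the replicate block (-0.51, SE 0.12, adjusted p = 0.00403). It was also called lower without the 3 libraries labelled PSC4 replicate 1 (-0.59, adjusted p = 0.0156). The share of all genes called was 43.4% with the block and 41.6% without those libraries.

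Leaving out the 3 libraries labelled PSC4 replicate 1 gave 7 calls for TGF-beta against control (6 lower, 1 higher), where 49.5% of all genes were then called. For CM against control there were then 4 calls, all higher, with Cd55 added, and 18.3% of all genes were called. With the replicate block the counts were 8 for TGF-beta (7 lower, 1 higher) and 6 for CM (all higher), where C4b, C1ra and Cd55 joined C3, Cfb and Serping1. The block also raised the share of all genes called to 51.0% for TGF-beta and 23.4% for CM. Without CM PSC5 replicate 1 the single gene called in CM was Serping1, so the CM count ranged from 1 to 6 over the alternatives tried. With only the T6 media C3 and Cfb were called in CM, and with only the T8 media C3 and Serping1.

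Neratinib was the remaining treatment. In CM+neratinib C3 stood at 502 and 1455 CPM in PSC4 replicates 1 and 2 and at 3976 and 584 CPM in PSC5 replicates 1 and 2. Cfb stood at 9.41 and 84.7 CPM in PSC4 replicates 1 and 2 and at 159 and 19.9 CPM in PSC5 replicates 1 and 2. For both genes PSC4 replicate 1 and PSC5 replicate 2 lay within the control range and the other 2 libraries above it. Against control both were called (C3 log2 fold change 1.47, SE 0.52, adjusted p = 0.0328; Cfb 1.96, SE 0.76, adjusted p = 0.0498), and 43.0% of all genes were, 22.1% higher and 20.9% lower. Under upper-quartile scaling 41.1% of the called genes were higher, against 51.4% under TMM, and Cfb was not called (adjusted p = 0.0560).

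Both calls rested on few libraries. C3 was called in 3 of 9 fits that left out 1 library and Cfb in 2 of 9, and without CM+neratinib PSC5 replicate 1 they fell to 0.58 (adjusted p = 0.258) and 0.98 (adjusted p = 0.260). They were lost as well without CM+neratinib PSC4 replicate 2, or without any 1 of control PSC4 replicates 2 and 3 and PSC5 replicates 1 and 2, and Cfb also without control PSC4 replicate 1. With the replicate block C3 was not called (1.08, adjusted p = 0.0537) and Serping1 was (0.82, SE 0.27, adjusted p = 0.0231). Of all genes 52.5% were called with the block. When the 3 libraries labelled PSC4 replicate 1 were removed, both C3 (1.80, adjusted p = 0.0181) and Cfb (2.27, adjusted p = 0.0190) were called, with 40.4% of all genes. Serping1 stood at 54.4 and 80.7 CPM in PSC4 replicates 1 and 2 and at 172 and 71.1 CPM in PSC5 replicates 1 and 2. All 4 of its values lay above control, but the difference was not called with the line as covariate (log2 fold change 0.93, SE 0.37, adjusted p = 0.0582).

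C1s1, C1ra and C4b spread widely in CM+neratinib. C1s1 stood at 254 and 736 CPM in PSC4 replicates 1 and 2 and at 663 and 311 CPM in PSC5 replicates 1 and 2, so 2 libraries were below and 2 above all control libraries. C1ra stood at 207 and 457 CPM in PSC4 replicates 1 and 2 and at 661 and 269 CPM in PSC5 replicates 1 and 2. C4b stood at 37.3 and 245 CPM in PSC4 replicates 1 and 2 and at 286 and 64.9 CPM in PSC5 replicates 1 and 2. The same 2 libraries, PSC4 replicate 1 and PSC5 replicate 2, were the lowest for C3, C4b, Cfb, C1s1, C1ra and Serping1. On the second principal component of all genes these 2 also lay farthest from the control libraries (-84.1 and -46.9, against -25.6 and -17.2 for the other 2 and 30.4 to 55.6 in control). They carried different medium codes, T8 and T6, and epithelial sums of 9.70 and 311 CPM.

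CM+neratinib was then set against CM, where the same passage and medium code were present with and without the inhibitor. None of the 8 tested genes was called by edgeR with the line as covariate (0 called, 2 with an unadjusted p under 0.05, 0 called by DESeq2), and 20.4% of all genes were, 10.8% higher and 9.56% lower. The median log2 fold change of the 8 genes was -0.37. Within pairs the level of Cfb with neratinib was 0.0683, 0.608, 0.699 and 0.313 times that in CM for PSC4 replicates 1 and 2 and PSC5 replicates 1 and 2, so it was lower in 4 of 4 pairs. Serping1 was 0.295, 0.632, 0.731 and 0.529 times its CM level in the same order, also lower in 4 of 4. C1qtnf6 was 0.596, 0.858, 0.978 and 0.675 times its CM level, again lower in 4 of 4. With the replicate block, which uses these pairs, all 3 were called lower (Cfb -1.57, SE 0.51, adjusted p = 0.0325; Serping1 -0.94, SE 0.28, adjusted p = 0.0206; C1qtnf6 -0.39, SE 0.11, adjusted p = 0.0195). Of all genes 32.9% were called with the block in either direction, which is near 3 of 8. Of those calls over all genes 51.4% were higher, whereas these 3 were all lower.

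C3 did not move one way. It was 0.171 and 0.885 times its CM level in PSC4 replicates 1 and 2 and 1.13 and 0.371 times in PSC5 replicates 1 and 2. C1s1 and C1ra were lower in 2 pairs and higher in 2, with ratios of 0.444 to 1.21 and 0.448 to 1.29. C4b was 0.195 and 1.01 times its CM level in PSC4 replicates 1 and 2 and 0.993 and 0.581 times in PSC5 replicates 1 and 2. The 95% intervals of the log2 fold change were wide (C3 -1.77 to 0.54, C4b -1.81 to 1.11, C1s1 -0.98 to 0.72). Without CM+neratinib PSC5 replicate 1, the library with the highest C3, there were 3 calls: C3 (-1.55, adjusted p = 0.0213), Serping1 (-1.25, adjusted p = 0.0338) and C1qtnf6 (-0.55, adjusted p = 0.0293). Calls over all genes rose as well, to 3678 of 14121, against 2838 of 13923 with all libraries. Without the 3 libraries labelled PSC4 replicate 1 there were 0 calls among the 8 genes, with 14.3% of all genes called, and the log2 fold change of Cfb was -0.71 (adjusted p = 0.529).

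**Figure D4:**
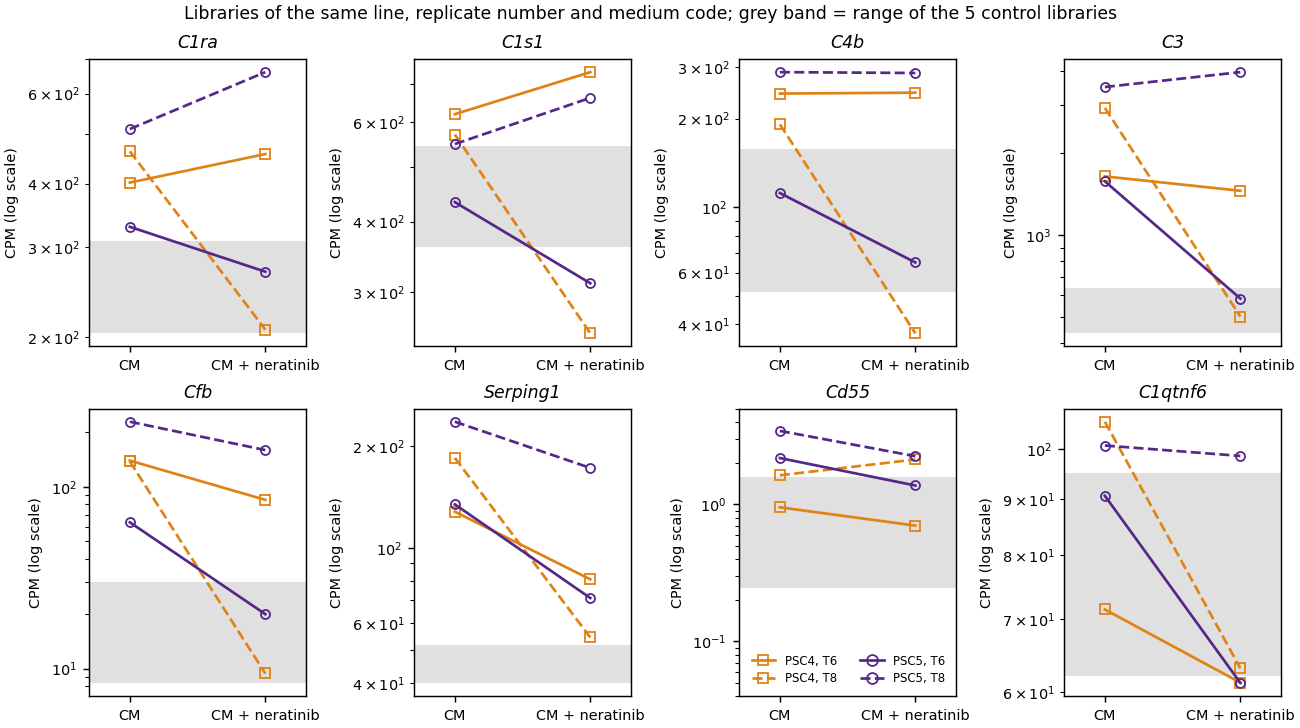
Level in CM and in CM+neratinib for each of the 8 tested genes, in CPM on log axes; each line joins the 2 libraries of the same line, replicate number and medium code, and the grey band is the range of the 5 control libraries. Cfb, Serping1 and C1qtnf6 are lower with neratinib in all 4 pairs, whereas C3 is at 0.171 times its CM level in PSC4 with T8 and at 1.13 times in PSC5 with T8.

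Effects were compared between the lines with interaction terms, and between the media T6 and T8 with an added term. None of the 8 genes was called in any of these 4 tests, and none had an unadjusted p under 0.05. Over all genes edgeR called 0 in each, with 600 genes at an unadjusted p under 0.05 for the TGF-beta effect, 44 for the CM effect, 238 for neratinib and 907 for the medium code. DESeq2 called 26, 0, 1 and 33 genes. The members' log2 interaction estimates reached from -1.22 to 2.13 for TGF-beta, so differences between the lines of that size were not detectable with these libraries.

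Beyond the 9 genes, 56 further genes were sorted by role. They are called complement genes here, though 7 of them are C1q and TNF related genes, relatives of C1q like C1qtnf6. Of the 56 genes 55 were in the files and 28 were tested. Of the 10 recognition genes 1 was tested, the scavenger receptor Colec12, at up to 533 CPM, and 6 (C1qa, C1qb, C1qc, Mbl1, Mbl2 and Fcnb) had 0 counts in all 17 libraries. Masp1, a protease of the lectin pathway, reached 144 CPM, whereas Cfd, the factor D that activates factor B, had 1 count in all. In the terminal list C6, C8a and C8b had 0 counts, C7 had 3 and C9 had 7. C2, the partner of C4 in the classical convertase, was present at 0.814 to 23.2 CPM. It stood at 11.8 to 23.2 CPM in PSC4 replicates 2 and 3 and at 0.814 to 7.0 CPM in all PSC5 and PSC4 replicate 1 libraries. C2 was called in none of the 3 comparisons with control. Its lowest level was 0.814 CPM with TGF-beta and 3.23 CPM in control. Within pairs its level with neratinib was 0.365 to 0.981 times that in CM.

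With TGF-beta 6 of these 28 genes rose and 8 fell, with a median log2 fold change of -0.49, where 40.2% of all genes were called. The 6 tested C1q and TNF related genes gave 2 of these rises and 1 of the falls. Colec12 fell to 216 ± 33.1 CPM (SD, n = 4), against 496 ± 31.5 CPM in control (SD, n = 5), with a fitted log2 change of -1.20 (adjusted p = 4.39e-06). The C1r-like protease C1rl fell from 17.9 ± 3.38 to 4.65 ± 2.06 CPM (-1.92, adjusted p = 3.73e-05). Csmd1, a membrane protein with complement control domains, fell from 6.66 ± 4.19 to 0.205 ± 0.234 CPM (-4.91, adjusted p = 0.000168). Also lower were Cd93, C1qtnf7 and the copies C1rb and C1s2, whose reads can be split with C1ra and C1s1.

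C1qtnf3, another C1q-like secreted protein, had the largest fitted rise apart from Itgax. It stood at 1.35 to 3.67 CPM in control and at 163 and 172 CPM in PSC4 replicates 2 and 3 and 56.2 and 63.7 CPM in PSC5 replicates 1 and 2 with TGF-beta (52.2-fold, log2 fold change 5.69, SE 0.32, adjusted p = 1.50e-08). Hc, the gene of C5, rose 7.19-fold but stayed low (4.42 ± 2.08 against 0.614 ± 0.239 CPM, adjusted p = 5.07e-05). Itgax, an integrin chain of a C3-fragment receptor, stood at 4.32 and 7.30 CPM in PSC4 replicates 2 and 3 and 0.473 and 0.936 CPM in PSC5 replicates 1 and 2 with TGF-beta. No other group had more than 1 Itgax count in a library. Itgax therefore passed the low-count filter only through the TGF-beta group, so its rise, 1 of the 6, is not independent of the filter. C1qtnf12 and Cr1l rose 1.20-fold and 1.12-fold, and Cr2 rose from 0.364 ± 0.292 to 1.47 ± 0.810 CPM. Without the 3 libraries labelled PSC4 replicate 1, 6 of 30 tested genes rose and 15 fell, where 49.5% of all genes were called. With the replicate block 6 of 28 rose and 14 fell, where 51.0% of all genes were called.

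Calls of Cr1l, C1qtnf7 and Cr2 with TGF-beta were not stable. Cr1l was lost under upper-quartile scaling (0.11, adjusted p = 0.122), and without any 1 of control PSC4 replicates 1 to 3, TGF-beta PSC4 replicate 3 or TGF-beta PSC5 replicate 2 (adjusted p = 0.0519 to 0.139). C1qtnf7 was lost without any 1 of control PSC4 replicates 2 and 3, control PSC5 replicates 1 and 2, TGF-beta PSC4 replicate 2 or TGF-beta PSC5 replicates 1 and 2 (adjusted p = 0.0510 to 0.0909). Cr2 was lost without control PSC5 replicate 1 (1.74, adjusted p = 0.0532).

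**Figure D5:**
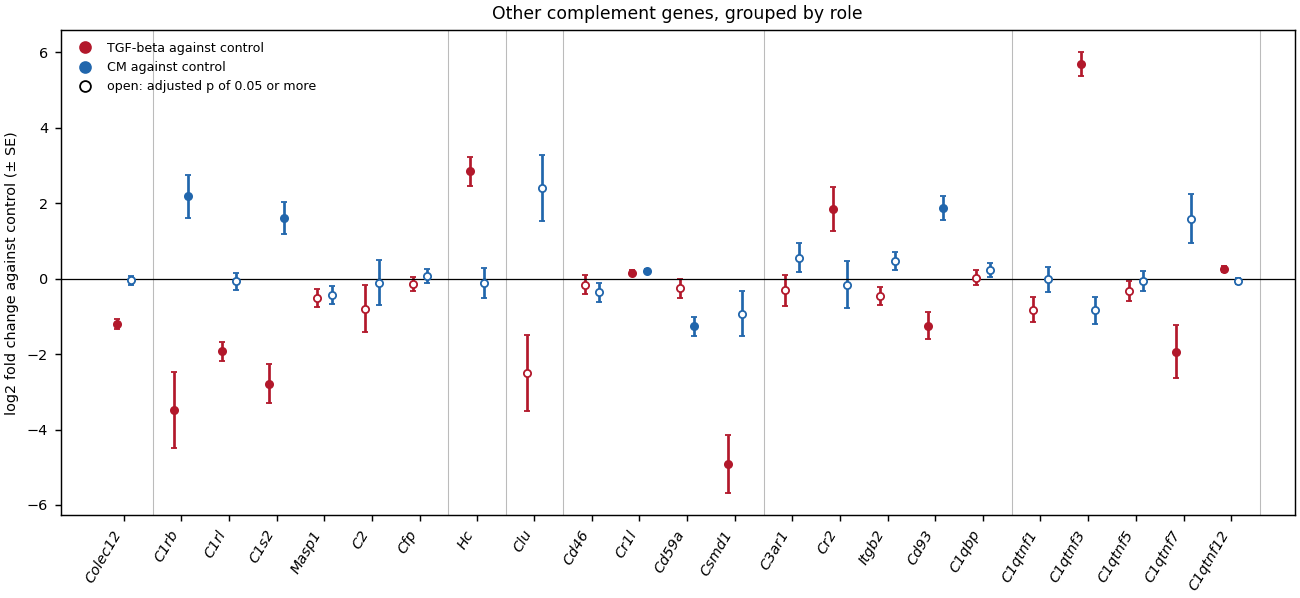
Fitted log2 fold changes against control, with standard errors, for 23 of the further complement genes that reached 1 CPM in a group mean or are copies of a described gene; vertical lines separate the roles and filled points have an adjusted p under 0.05. C1qtnf3 (5.69) and Hc (2.85) rise with TGF-beta, Csmd1 falls (-4.91), and Cd59a is the 1 gene called lower in CM (-1.26); Itgax is left out because its control libraries had at most 1 count.

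In CM 4 of the 28 genes rose (C1rb, C1s2, Cr1l and Cd93) and 1 fell, where 14.1% of all genes were called. C1rb and C1s2, the copies of C1ra and C1s1, were low. Their means were 0.153 and 1.10 CPM in control and 0.729 and 3.26 CPM in CM. C1rb had at most 6 counts in a control library and 1 in a TGF-beta library. It passed the low-count filter only through the conditioned-medium groups, so its call in CM is not independent of the filter. With the copies summed into C1ra and C1s1, 2 of 26 genes were higher and 1 lower. Cd93, a membrane protein first described as a C1q receptor, rose to 5.16 ± 1.55 CPM (SD, n = 4), against 1.4 ± 0.625 CPM in control (SD, n = 5), with a fitted log2 change of 1.87 (SE 0.32, adjusted p = 0.00186). Cd59a, which blocks the membrane attack complex on the cell surface, fell from 4.49 ± 0.988 to 1.92 ± 0.925 CPM (-1.26, SE 0.26, adjusted p = 0.00576), and no CM library reached the lowest control value. The calls of C1rb, C1s2 and Cr1l were each lost without CM PSC5 replicate 1 (adjusted p = 0.0717, 0.0907 and 0.0987) and without control PSC5 replicate 2 (adjusted p = 0.0536, 0.0551 and 0.0528). C1rb was also lost without CM PSC4 replicate 1 (adjusted p = 0.0635), C1rb and C1s2 without control PSC5 replicate 1 (adjusted p = 0.0589 and 0.0641), and Cr1l without CM PSC4 replicate 1 or 2 or control PSC4 replicate 1 or 3 (adjusted p = 0.0507 to 0.0718). The count of 5 was then 2 without CM PSC5 replicate 1 (1 higher, 1 lower), and also 2 without control PSC5 replicate 2. Clu, clusterin, a soluble inhibitor of the attack complex, stood at 231 and 161 CPM in the T6 libraries and 35.7 and 59.2 CPM in the T8 libraries of CM, against 8.23 to 56.0 CPM in control, and was not called. The epithelial sums were also higher in these T6 libraries, and their part in the Clu levels was not tested. Without the 3 libraries labelled PSC4 replicate 1, 9 of 30 genes were called in CM, 6 higher and 3 lower. The share of all genes called was then 18.3%.

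Between CM+neratinib and CM 5 of the 28 genes rose and 3 fell, where 20.4% of all genes were called. Of the 5 tested membrane regulators among these 28 genes 3 rose. Cd46, a cofactor for cleavage of C3b, rose from 1.01 ± 0.204 to 2.18 ± 0.471 CPM (SD, n = 4 each; log2 fold change 1.11, SE 0.27, adjusted p = 0.00961), Cd59a from 1.92 ± 0.925 to 3.87 ± 0.946 CPM (1.01, SE 0.27, adjusted p = 0.0158) and Cr1l, the mouse regulator Crry, from 36.7 ± 1.47 to 49.7 ± 2.44 CPM (0.44, SE 0.06, adjusted p = 0.000429). The groups did not overlap for any of these 3, and the share of all genes without overlap was not computed. Cd59a was lost without CM+neratinib PSC5 replicate 2 (0.92, adjusted p = 0.0542), whereas Cd46 and Cr1l held in all fits that left out 1 library. Csmd1 was not called, and Cd55 had a log2 fold change of -0.22 (95% interval -1.31 to 0.86, adjusted p = 0.793). Hc fell to 2 to 4 counts per library (log2 fold change -2.17, adjusted p = 0.0104), and Colec12, Masp1, Itgb2 and C1qtnf5 were also called. C1qtnf5 lost its call in 6 of 8 fits that left out 1 library, without any 1 of CM PSC4 replicates 1 and 2, CM PSC5 replicate 2, CM+neratinib PSC4 replicate 2 or CM+neratinib PSC5 replicates 1 and 2 (adjusted p = 0.0515 to 0.101). Masp1 lost it without CM PSC4 replicate 1, CM PSC5 replicate 2 or CM+neratinib PSC4 replicate 1 (adjusted p = 0.0751 to 0.0838), and Itgb2 without CM PSC4 replicate 2, CM PSC5 replicate 1 or CM+neratinib PSC5 replicate 2 (adjusted p = 0.0712 to 0.108). Without the 3 libraries labelled PSC4 replicate 1, 4 genes were called, all higher, where 14.3% of all genes were called. Hc, Colec12, Masp1 and Itgb2 were not among the 4.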

How the data were processed

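RNA of 17 libraries was measured by mRNA sequencing. The authors deposited expected counts (estimated counts) for each gene and library; Salmon 1.4.0, DESeq 2, GRCm38 and mm10 are named, with no roles, per the submitters' processing notes. The annotation release and filters are not given in the sources used here. Of the nonzero values 74.8% were not whole (tolerance 1e-06), so all were rounded, which changed a total by at most 307.94. Symbols and positions came from GENCODE on GRCm38, matching 35437 of 35896 IDs, and promoters from RefSeq on GRCm38.p6.

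Groups were taken from the labels. The test was edgeR 4.0.16 (quasi-likelihood, TMM factors, group and line terms, all 17 libraries, R 4.3.3) after the filterByExpr filter by group. The filter asked for the CPM of about 10 counts in at least as many libraries as the smallest group, 4, and 15 counts in total. Benjamini-Hochberg adjustment covered 13923 genes, and a call was an adjusted p under 0.05. CPM used TMM factors, and errors are SDs over libraries. The method was tested on simulated data. Alternatives were DESeq2 1.42.0, upper-quartile factors, no filter, a replicate block, no line term, only the groups compared, other treatments of PSC4 replicate 1, medium T6 or T8 alone, summed paralogs, and each library left out in turn. Labels give libraries of the same line and number the same passage. The deviations of all 22 such pairs from their group means correlated at 0.12 or more (median 0.299), against a median of -0.0756 for 32 pairs of other numbers. The difference of PSC4 replicate 1 from its line, and the medium code in the conditioned media, also enter these values. They cannot show a passage effect alone. The numbers were taken to pair the libraries as labelled.

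The rule named all 9 complement genes, the 3 genes most like each, and other complement genes with a group mean of at least 1 CPM or sharing reads with one of the 9. Genes named at 0 or low counts fall outside it and were chosen after their values were seen. They are the C1q chains, Mbl1, Mbl2, Fcnb, Cfd, C6, C7, C8a, C8b, C9 and Cd59b. The genes and lists were chosen with earlier results of these data known. A gene on the lists is counted in the totals but is not reported here by name.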

Additional observations from a re-analysis of the deposited data

Results flagged for a closer look

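Serping1 in TGF-beta PSC5 replicate 1 stood at 25.8 CPM, far from the nearest of the other 3 libraries of its group (8.87 CPM); the gap was 0.855 of the group's range. C1qtnf6 in CM+neratinib PSC5 replicate 1 stood at 98.6 CPM, against 63.1 CPM in the nearest library, a gap of 0.949 of the range. These were the 2 values beyond Dixon's critical value among 32 gene and group combinations, and chance alone gives about 1 in 20.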

How the results depend on the processing

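The count of complement genes called ranged over all alternatives from 6 to 8 for TGF-beta, 1 to 6 for CM and 0 to 3 for CM+neratinib against control, from 0 to 3 for CM+neratinib against CM and from 7 to 8 for CM against TGF-beta. CM+neratinib against control gave 1 under upper-quartile factors, 0 with no filter, 1 with only the groups compared, 0 with T6 alone and 1 with T8 alone, where fewer libraries or more genes entered in all but the first. Leaving out 1 library gave 6 to 7, 1 to 3, 0 to 3, 0 to 3 and 7 to 8 calls in the order above. The replicate block gave 6 calls for CM and 3 for CM+neratinib against CM; the calls it changed are all given above, and it changed no other call of the 9 genes. Tests between lines and media gave 0 under every setting run. CM+neratinib against CM changed sign, never as a call, for C1s1 (0.070) and C1ra (0.16) without the 3 PSC4 replicate 1 libraries. With 1 library left out this difference ranged from -1.18 to 0.13 for C4b (above 0 without CM PSC5 replicate 1 or CM+neratinib PSC4 replicate 1), from -0.44 to 0.13 for C1s1 and -0.50 to 0.15 for C1ra (both above 0 without CM+neratinib PSC4 replicate 1 or PSC5 replicate 2, and C1ra without CM PSC5 replicate 1), and from -0.75 to 0.0047 for Cd55 (above 0 without CM+neratinib PSC5 replicate 2). CM+neratinib against control changed sign for Cd55 with T6 alone (-0.034), and ranged from -0.086 (without CM+neratinib PSC5 replicate 1) to 0.48 for C1s1. The cause was not tested. Other fold changes of the 9 genes kept direction and side of the threshold in 689 refits, gained the call in 31 and lost it in 36. For the other complement genes 955 kept the call and 123 lost it. For CM+neratinib against CM their 8 calls became 12 with the block, 2 with only the groups compared, 3 with T6 and 0 with T8. Calls over all genes moved from 2838 to 4575, 595, 1249 and 184 in the same order. Depth limits C5ar1 and, at 564 counts, Cd55.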
